A study of Homo sapiens with 3 samples.

Results

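Edited regions whose first listed gene bears a clone-based name were examined in RBFOX2-APOBEC1 STAMP data, and they numbered 452, 466 and 375 of 14288, 15177 and 11362 clusters off the mitochondrial chromosome in replicates 1, 2 and 3. A cluster is a merged stretch of windows in which the authors found more C-to-U editing than their background model allowed, and each cluster carries a list of the exons and introns that it falls in. A cluster was taken when the first gene in that list began with RP and digits, CTA, CTB, CTC, CTD, KB, LL or XXbac, or was made of AC, AL or AP with 6 digits and a version, so the choice rested on the name and on no measured value. The 1293 clusters lie under 487 gene names.

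In STAMP, the deaminase APOBEC1 is joined to an RNA-binding protein, so that C-to-U changes in RNA-seq reads mark where the fusion sat. The cells were wild-type HEK293XT, a lenti-X form of the human embryonic kidney line HEK293T, in which doxycycline had induced the RBFOX2-APOBEC1 fusion for 72 h. The treatment label and the study's methods give a transient transfection of the fusion construct, while the growth protocol in the labels speaks of stable lines. The 3 replicates are the only group, no library without the fusion was analysed here, and editing in the absence of RBFOX2 was therefore not measured.

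Clone-based names were given by the human genome annotation to genes without an approved symbol, and they repeat the name of the BAC, PAC or cosmid clone or of the sequence record in which the gene was found. Such genes are mostly long noncoding RNAs, antisense transcripts, pseudogenes and readthrough or poorly supported models, and many of them overlap a protein-coding gene. RBFOX2 is a splicing regulator that binds GCAUG in introns and in mature transcripts. APOBEC1 deaminates C bases in single-stranded RNA near the place where its partner binds.

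The label of unannotated genes did not hold for most of these clusters. Only 191, 183 and 154 clusters of replicates 1, 2 and 3 listed clone-based names alone, 528 in all under 279 genes. A further 257, 278 and 219 clusters, 754 in all, also listed a gene with an approved or otherwise not clone-based symbol at the same position, and 675 of these listed exactly 1 such symbol. These 754 clusters lie under 213 clone-based names and 266 partner symbols, and 8 clone-based names occur in both sets. The other 11 clusters lie in LLPH (8 clusters), LLGL1 (2) and LLGL2 (1), which are ordinary protein-coding genes that the prefix LL takes in. Below, the first set is called clone-only and the second co-listed.

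Which gene comes first followed from the alphabet. In the whole series 2574 clusters listed more than 1 entry, and the entries of all 2574 stood in alphabetical order, so that AC073610.5 preceded ARF3 and RP11-159D12.5 preceded SRSF1. Names in AC, AL or AP made up 42.2% ± 0.855 (SD, n = 3) of the clone-named clusters, and only 21.2% ± 1.72 of them were clone-only. Names in RP made up 43.8% ± 1.99, and 61.6% ± 3.76 of those were clone-only. Names in CTA, CTB, CTC or CTD made up 13.1% ± 1.88, with 37.7% ± 2.63 clone-only. Counting every cluster that lists a clone-based name in any place gave 633, 649 and 512 clusters, so 512 clusters over the 3 replicates list such a name behind another gene and were not taken.

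**Figure D1:**
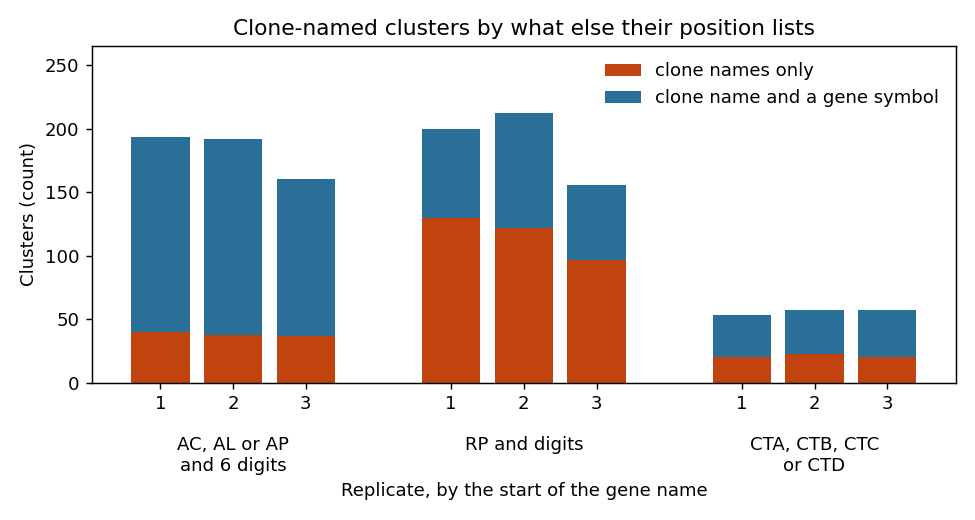
Number of clone-named clusters (y axis, count) in each replicate (x axis), by the start of the gene name, with clusters that list clone-based names only in orange and clusters that also list a gene symbol in blue. Of the names in AC, AL or AP, 40, 38 and 37 clusters were clone-only against 153, 154 and 123 co-listed, while of the names in RP 130, 122 and 97 were clone-only against 70, 90 and 59.

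Clone-named clusters were 3.16% (Wilson 95% interval 2.89 to 3.46), 3.07% (2.81 to 3.36) and 3.30% (2.99 to 3.65) of the clusters of replicates 1, 2 and 3. These intervals cover counting error only. Clone-only clusters were 1.30% ± 0.0815 and co-listed clusters 1.85% ± 0.0669 of all clusters (SD, n = 3). Every difference that follows was taken within each replicate and tested with a two-sided exact sign-flip permutation test over 3 replicates, whose smallest possible p is 0.25. No difference could therefore pass 0.05, and what the data give is the size, the SD over replicates and the number of replicates that share the sign.

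Clone-only clusters were shallower and had a higher edit fraction than the clusters of all remaining genes, and co-listed clusters did not share this. The edit fraction divides the edited bases of a cluster by the C bases that its reads cover. Its median in clone-only clusters was 2.63%, 2.70% and 2.78% in replicates 1, 2 and 3, against 1.63%, 1.64% and 1.79% in the remaining clusters. The difference was 1.02 ± 0.0410 percentage points (SD, n = 3 replicates, higher in 3 of 3, exact p = 0.25). In co-listed clusters the median was 1.47%, 1.67% and 1.69%, and the difference from the remaining clusters was -0.0742 ± 0.0986 points with both signs among the replicates (exact p = 0.50). Clone-only clusters exceeded co-listed ones by 1.09 ± 0.0661 points, again in 3 of 3 replicates (exact p = 0.25). As 1 set, the clone-named clusters stood at 1.77%, 2.03% and 1.99%, which is 0.242 ± 0.132 points above the remaining clusters.

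Read depth differed in the opposite direction. The median of the mean read depth was 15.5, 14.1 and 16.9 reads in clone-only clusters, 31.6, 28.4 and 24.3 in co-listed clusters and 25.3, 24.7 and 21.1 in the remaining clusters. Clone-only clusters were thus different from the remaining ones by -8.18 ± 3.48 reads and co-listed clusters by 4.43 ± 1.70 reads, each in 3 of 3 replicates (exact p = 0.25 for both). A depth under 10 reads was found in 33.0% ± 4.54 of the clone-only clusters, 17.3% ± 1.24 of the co-listed and 19.0% ± 2.55 of the remaining clusters.

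Within 6 broad classes of depth the gap in edit fraction was smaller. Weighted by the number of clone-only clusters in each class, the difference from the remaining clusters was 0.146, -0.134 and 0.187 points, a mean of 0.0663 ± 0.174 (exact p = 0.50). Below 10 reads the clone-only median was 4.79% ± 0.544 against 5.03% ± 0.134 in the remaining clusters. At 20 to 30 reads it was 2.07% ± 0.371 against 1.65% ± 0.0406, and at 50 reads or more 1.18% ± 0.235 against 0.781% ± 0.00951, and in these 2 classes it was higher in 3 of 3 replicates. The class of 50 reads or more, which has no upper limit, held 30, 32 and 30 clone-only clusters whose median depth was 7.37 ± 23.6 reads above that of the remaining ones, and the difference there was 0.394 ± 0.233 points (exact p = 0.25). Co-listed clusters of that class had a median of 0.786% ± 0.0601, within 0.00457 ± 0.0612 points of the remaining clusters.

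**Figure D2:**
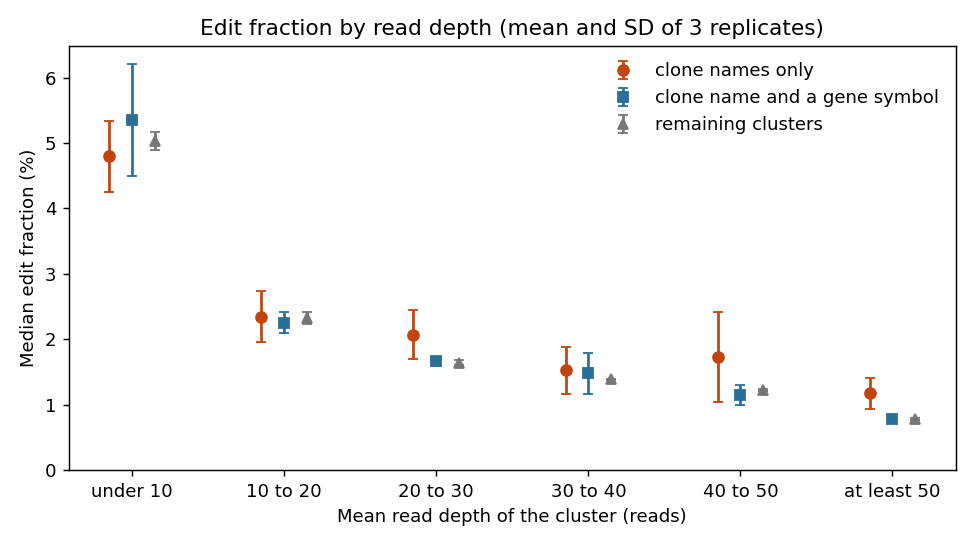
Median edit fraction (y axis, %) by the mean read depth of the cluster (x axis, 6 classes) for clone-only clusters (orange circles), co-listed clusters (blue squares) and remaining clusters (grey triangles), with points at the mean of 3 replicates and bars of 1 SD. All sets fall from about 5% below 10 reads to at most 1.18% at 50 reads or more, where the clone-only set lies above the other two.

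Recurrence, the share of clusters that overlap on the same strand by at least 1 base with a cluster in both other replicates, was higher in clone-named clusters. It held for 65, 66 and 66 clone-named clusters, that is 14.4%, 14.2% and 17.6%, against 10.5%, 9.84% and 13.1% of all clusters off the mitochondrial chromosome. The difference from the remaining clusters was 4.37 ± 0.368 points (3 of 3 replicates, exact p = 0.25). Clone-only clusters recurred in 17.4% ± 2.38 and co-listed clusters in 14.2% ± 1.59, and the difference from the remaining clusters (10.4%, 9.70% and 12.9%) was 6.39 ± 0.995 and 3.17 ± 0.0992 points (both 3 of 3, exact p = 0.25). Leaving out replicate 3 made the criterion looser, because recurrence then means overlap with a cluster in the 1 other kept replicate. By that criterion the differences were 1.80 points for all clone-named, 1.65 for clone-only and 1.23 for co-listed clusters. These sizes are not on the same measure as those above. With names in RP only and all 3 replicates kept, the differences were 2.80, 3.56 and 1.69 points.

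Recurrence was most frequent in clusters with many edited reads. All 18, 19 and 19 clone-only clusters with over 10 edited reads were found in all 3 replicates, as were 11 of 14, 14 of 15 and 12 of 14 co-listed clusters. In the remaining clusters with over 10 edited reads the share was 78.9% ± 3.94, so that the clone-only set lay 21.1 ± 3.94 points above (3 of 3 replicates, exact p = 0.25) and the co-listed set 6.96 ± 10.4 points above with both signs (exact p = 0.50). This class has no upper limit, so the sets were not compared at equal numbers of edited reads. Over all clusters the mean number of edited reads was 10.9 ± 0.179 in the clone-only and 3.83 ± 0.199 in the remaining set, at a median of 2 in both. With 1 edited read, recurrence was 3.76% ± 1.90 in clone-only, 2.79% ± 2.78 in co-listed and 2.21% ± 0.497 in remaining clusters. With 2 edited reads it was 3.64% ± 1.92, 3.01% ± 0.705 and 4.09% ± 1.46. The clone-only difference from the remaining clusters was there -0.451 ± 1.75 points with both signs among the replicates. With 3 to 5 edited reads recurrence was 15.5% ± 4.51, 14.0% ± 4.71 and 13.5% ± 4.36. With 6 to 10 edited reads the direction was the other way on average, with 2 of 7, 2 of 5 and 1 of 5 clone-only clusters recurrent, or 29.5% ± 10.0, against 41.6% ± 5.78 of the remaining clusters. That difference was -12.1 ± 14.8 points with both signs among the replicates (exact p = 0.50). Of the 30, 30 and 31 recurrent clone-only clusters, those with over 10 edited reads were thus 18, 19 and 19.

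**Figure D3:**
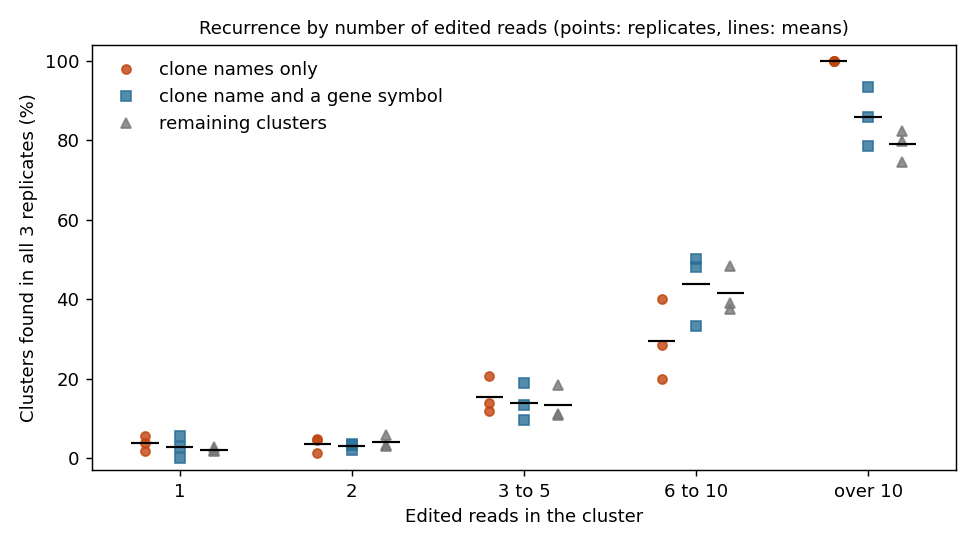
Share of clusters found in all 3 replicates (y axis, %) by the number of edited reads in the cluster (x axis), with 1 point per replicate and a line at the mean, for clone-only (orange), co-listed (blue) and remaining clusters (grey). The 3 sets lie close together up to 5 edited reads, and the clone-only mean is below the others at 6 to 10. In the class over 10, which has no upper limit, every clone-only cluster recurred against 78.9% of the remaining ones.

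The score of a cluster is the cumulative probability of its edit fraction under a negative binomial distribution. A score near 1 does not by itself mean a high edit fraction. RP11-742N3.1 scored 1 at 0.400% with 85 edited reads in replicate 1. A cluster of RP11-321N4.5 scored 0.969 at 5.88% with 1 edited read in replicate 2. The score was at least 0.99 in 289, 291 and 248 clone-named clusters, a share of 64.2% ± 1.85 against 60.8%, 60.1% and 61.2% of all clusters. Clone-only clusters reached that score in 70.3% ± 1.05, which is 9.76 ± 1.29 points above the remaining clusters (3 of 3, exact p = 0.25). LINC, antisense and SNHG clusters reached it in 70.6% ± 4.28 and pseudogene clusters in 73.2% ± 1.95. The clone-only share differed from that of LINC, antisense and SNHG clusters by -0.311 ± 5.02 points with both signs among the replicates (exact p = 1.0), and from that of pseudogenes by -2.93 ± 2.90 points (lower in 3 of 3, exact p = 0.25). Co-listed clusters reached it in 59.8% ± 3.68 and differed from the remaining clusters with both signs among the replicates.

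A high share of edited reads was more frequent in clone-only clusters than in the remaining ones, and pseudogenes had a share of similar size. Among clusters with at least 10 reads, at least 50% of the reads were edited in 9, 9 and 9 clone-only and 1, 1 and 1 co-listed clusters, against a background of 0.191%, 0.224% and 0.238% of all such clusters. The clone-only share was 6.60% ± 0.655 and the share of the remaining clusters 0.139% ± 0.0194, a difference of 6.46 ± 0.646 points (3 of 3 replicates, exact p = 0.25). Pseudogenes, taken as symbols that end in P and digits after another deposited symbol, had 5, 7 and 5 such clusters, or 5.60% ± 0.498, and the clone-only share was 0.995 ± 0.202 points above their share (3 of 3, exact p = 0.25). LINC, antisense and SNHG genes, which are long noncoding RNAs with approved symbols, had 1, 0 and 0 such clusters, or 0.422% ± 0.731. Over the whole series 40 loci passed this limit and 17 of them did so in all 3 replicates, of which 9 were clone-only, 1 was co-listed and 4 were pseudogenes. A locus here is the merged stretch of overlapping clusters of the replicates.

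All 9 of these clone-only loci lie in exons, and 8 of them list 1 gene only, while CTD-2192J16.15 also lists CTD-2192J16.22. The deepest was RP11-864N7.2 on chromosome 11 from 74456762 to 74456806 (hg19, minus strand), where 483 of 484, 321 of 321 and 312 of 312 reads were edited in replicates 1, 2 and 3. RP11-51O6.1 (chromosome 16 from 61089349 to 61089393, minus strand) had 232 of 233, 172 of 173 and 168 of 168 edited reads. AC007969.5 (chromosome 2 from 172373810 to 172373854, minus strand) had 299 of 358, 253 of 298 and 244 of 322. In the first pair nearly no read was unedited, whereas at AC007969.5 the edited share was 75.8% to 84.9%.

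The other 6 were thinner. CTD-2192J16.15 (chromosome 19 from 12754570 to 12754614) had 41 of 44, 55 of 57 and 39 of 39 edited reads. RP11-889L3.1 (chromosome 5 from 177482726 to 177482770) had 12 of 13, 16 of 16 and 13 of 13. RP1-159A19.3 (chromosome 1 from 27975991 to 27976035) had 19 of 22, 30 of 35 and 20 of 24. These lay above 80% in every replicate. AC144530.1 (chromosome 3 from 197577272 to 197577301) had 18 of 23, 15 of 23 and 14 of 17 edited reads. RP11-83J16.1 (chromosome 15 from 35235282 to 35235431) had 22 of 34, 46 of 67 and 55 of 78, in clusters of 120, 150 and 150 bases. RP11-587D21.1 (chromosome 11 from 27603333 to 27603512) had 9 of 13, 33 of 46 and 19 of 34, and its clusters measured 60, 180 and 105 bases in replicates 1, 2 and 3, so the replicates did not cover the same stretch.

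Multiplying the edit fraction by the number of C bases in the cluster gives how many fully converted C bases the editing amounts to. It was between 0.9 and 1.1 in every replicate at 6 of the 9 loci. RP11-864N7.2 gave 1.00 to 1.02, RP11-51O6.1 1.01 to 1.06, RP11-889L3.1 0.963 to 1.01, CTD-2192J16.15 0.946 to 1.00, RP1-159A19.3 0.952 to 0.974 and AC144530.1 0.933 to 1.00. In these the editing equalled that of about 1 C base converted in full, though the files do not give the edited positions. The paper names genetic variation as a source of false calls, and only common SNPs were removed. Whether any of the 9 loci holds a variant of the genome was not tested, and no library without the fusion was analysed here. AC007969.5 gave 1.15 to 1.24, yet its edited bases equalled its edited reads in every replicate (299, 253 and 244), or 1 edit per edited read on average. RP11-587D21.1 gave 1.29 to 2.98, with 12, 68 and 44 edited bases on 9, 33 and 19 edited reads. RP11-83J16.1 gave 2.26 to 3.65, with 64, 144 and 156 edited bases on 22, 46 and 55 edited reads, so edited reads of the latter 2 loci carried more than 1 edit on average. Clusters of RP11-587D21.1 held 12, 42 and 23 C bases and those of RP11-83J16.1 24, 34 and 34, so both ranges mix stretches of different length. The 9 loci held 43.9% ± 3.16 of all edited bases of the clone-only clusters.

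The co-listed locus among them is RP5-1126H10.2 (chromosome 1 from 19401275 to 19401319, minus strand), which lies in an exon of UBR4, a large E3 ubiquitin ligase. There 39 of 78, 34 of 59 and 23 of 40 reads were edited, and the editing equalled 0.647 to 0.773 converted C bases. A further clone-only locus, AC073869.20, had all of its 5, 9 and 5 reads edited and fell under the minimum of 10 reads.

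**Figure D4:**
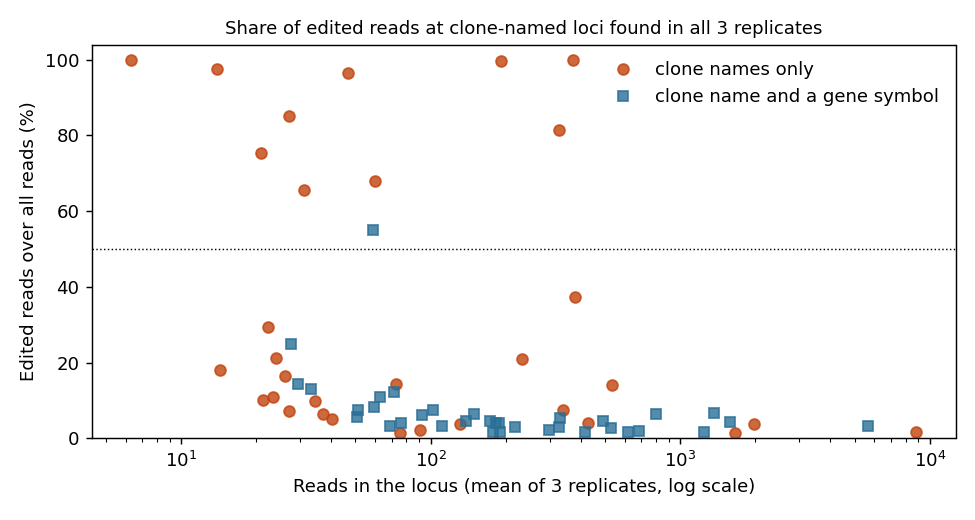
Edited reads over all reads (y axis, %) against the reads in the locus (x axis, mean of 3 replicates, log scale) for clone-only loci (orange circles, 32) and co-listed loci (blue squares, 35) found in all 3 replicates, with a dotted line at 50%. Above the line lie 10 clone-only loci and 1 co-listed locus, and most other loci lie below 20%.

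Merging the replicates gave 1025 clone-named loci, of which 835 were found in 1 replicate, 123 in 2 and 67 in 3. The 32 clone-only loci found in all 3 replicates had a median edit fraction of 3.50% (range 0.301% to 19.4%), a median depth of 43.9 reads and a median of 15.4% of reads edited. The 35 co-listed ones had a median of 0.891% (0.373% to 7.70%), a median depth of 103 reads and 4.54% of reads edited. Across the 67 loci the edit fraction correlated between pairs of replicates with Pearson r of 0.95 to 0.96 and Spearman rho of 0.886 to 0.913, as a description over loci that share libraries and depth. In the 32 clone-only loci r was 0.948 to 0.983 and rho 0.918 to 0.965. In the 35 co-listed loci r was 0.748 to 0.938 and rho 0.727 to 0.854. The 67 loci held 66.1% ± 2.44 of the edited bases of clone-named clusters, and the 10 loci with the most edited reads held 42.7% ± 1.99.

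Among loci found in all 3 replicates at a depth of at least 50 in each, of which there were 34, the highest edit fractions were clone-only. RP11-864N7.2 had 14.5%, 14.3% and 14.5%, and RP11-51O6.1 had 11.2%, 11.3% and 11.8%. RP11-364L4.1 (chromosome 4 from 144271149 to 144271193, minus strand) had 6.60%, 8.42% and 8.34%, with 83 of 287, 160 of 378 and 196 of 477 reads edited. AC007969.5 had 6.50%, 6.45% and 6.06%. The replicate ranges of these 4 loci did not overlap, and the narrowest gap lay between 6.60% at RP11-364L4.1 and 6.50% at AC007969.5, both in replicate 1.

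The fifth was in an intron. AC138123.2 (chromosome 12 from 93477251 to 93477340, minus strand) had an edit fraction of 4.66%, 3.79% and 3.97% and is listed together with RP11-202G11.1 and RP11-511B23.2, which are clone-based too. Only 21 of 1737, 25 of 1834 and 21 of 1426 reads were edited there, while the mean depth was 116, 136 and 88.8 reads, so the reads counted for the locus were far more than its mean depth. A second locus in the same intron, from 93477131 to 93477175, had a depth of 6776, 7221 and 6403 reads and an edit fraction of 0.448%, 0.221% and 0.235%, from 113, 155 and 135 edited reads. Its clusters held 4, 10 and 10 C bases in replicates 1, 2 and 3, so these edit fractions were not taken over the same stretch. Reads edited made up 1.23%, 1.63% and 1.74% of this second locus, close to the 1.21%, 1.36% and 1.47% of its neighbour. The rank of the locus from 93477251 to 93477340 therefore depended on which of the 2 measures was taken.

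Next came loci with means of 1.17% to 1.31%, whose replicates overlapped so that their order is not settled. RP4-706A16.3 had 0.645%, 2.27% and 1.01% from only 3, 1 and 2 edited reads. AC013394.2 had 1.48%, 1.15% and 1.19% from 26, 25 and 24 edited reads in an exon that lists no other gene. RP11-423H2.1 (chromosome 5 from 177310924 to 177311178) had 0.967%, 1.43% and 1.24% from 66, 98 and 58 edited reads. Co-listed loci of this range were RP11-159D12.5 with SRSF1, at 1.12%, 1.05% and 1.62%, and AL353354.1 with DNAJC8, at 1.60%, 0.827% and 1.1%.

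**Figure D5:**
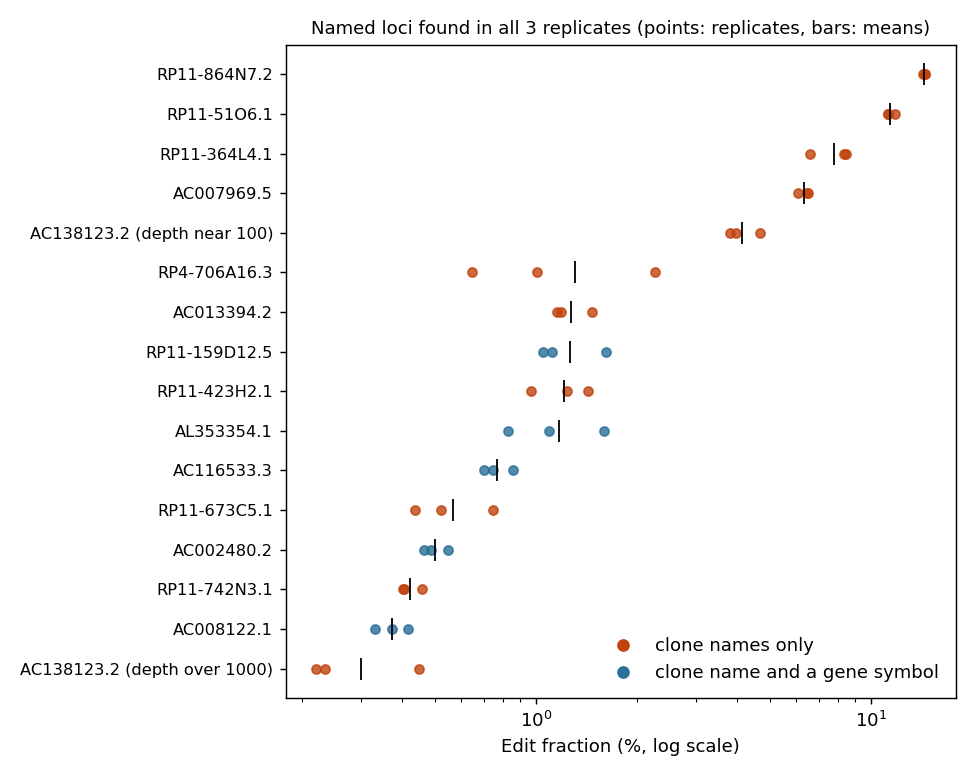
Edit fraction (x axis, %, log scale) of the named loci found in all 3 replicates (y axis, ordered by mean), with 1 point per replicate and a bar at the mean, clone-only in orange and co-listed in blue. The 5 highest loci, from RP11-864N7.2 down to the shallower AC138123.2 locus, are clone-only, and the co-listed loci all lie at means below 1.3%.

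By number of edited reads, RP11-864N7.2, AC007969.5 and RP11-51O6.1 came first, and several deeper loci entered the list behind them. AC002480.2 (chromosome 7 from 22549958 to 22550291, minus strand) had 237, 177 and 128 edited reads of 7241, 6131 and 3629, at an edit fraction of 0.465%, 0.488% and 0.547%. It is listed as an intron of AC002480.2 and of STEAP1B and as an exon or intron of EEF1A1P6, a pseudogene of the translation elongation factor EEF1A1. Reads of such a copy can map to more than 1 place, and how these were treated is not given in the sources used here, so the assignment of this locus is uncertain.

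AC116533.3, listed with PLEKHA7, an adherens junction protein, and with RP11-466H18.1, had 83, 99 and 92 edited reads at 0.745%, 0.858% and 0.699%. This merged locus also pools clusters listed under RP11-466H18.1 alone. The clusters listed first under AC116533.3 had by themselves 0.887%, 1.12% and 0.699%. RP11-742N3.1, a clone-only exon on chromosome 11 from 82400857 to 82400931, had 85, 78 and 63 edited reads of 2212, 2029 and 1706, at 0.400%, 0.404% and 0.457%. The edit fraction of these merged loci stayed under 1% in all replicates although each held over 60 edited reads. Of 19 intronic clone-named loci found in at least 2 replicates, those with the most edited reads were AC002480.2, both AC138123.2 loci, RP11-673C5.1 (24, 12 and 15 edited reads) and AC008122.1 with C2orf88 and HNRNPCP2 (14, 13 and 15).

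Introns were more frequent among clone-named than among remaining clusters, and clusters with several listed entries were more often intronic in both. By the first entry, 12.3% ± 0.793 of the clone-named and 1.75% ± 0.324 of the remaining clusters were intronic, a difference of 10.5 ± 0.630 points (3 of 3 replicates, exact p = 0.25), or 4.94 points with names in RP only. Pseudogene clusters were intronic in 12.3% ± 3.38 and LINC, antisense and SNHG clusters in 9.48% ± 0.734. Several entries were listed for 62.5% ± 1.06 of the clone-named against 4.46% ± 0.0703 of the remaining clusters. Among clusters with 1 entry, 4.14% ± 0.637 of the clone-named and 1.13% ± 0.253 of the remaining were intronic. Among clusters with several entries the shares were 19.0%, 16.5% and 15.9% against 16.9%, 15.6% and 12.5%, and co-listed clusters differed from the remaining ones there by 0.439 ± 1.15 points with both signs (exact p = 0.75). The 20, 15 and 12 clone-only clusters with several entries were intronic in 55%, 33.3% and 50%, which is 31.1 ± 11.6 points above the remaining clusters with several entries (3 of 3 replicates, exact p = 0.25). Of exonic clone-only clusters, 54.6% ± 3.56 lay in the exon that the files number 0, against 20.9% ± 1.14 of the co-listed and 32.1% ± 1.32 of the remaining exonic clusters.

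Clone-named clusters were richer in C. C bases made up 22.1 ± 0.231 of 100 bases in clone-only, 20.7 ± 0.293 in co-listed and 19.6 ± 0.396 in remaining clusters, and the difference was 2.48 ± 0.626 and 1.13 ± 0.182 per 100 bases (3 of 3 replicates each, exact p = 0.25). The median length was 45 bases in every set and replicate and the mean length of clone-only clusters exceeded that of the remaining ones by 1.91 ± 1.12 bases (3 of 3 replicates, exact p = 0.25). Chromosome 19 held 8.54% ± 1.88 of the clone-named against 2.98% ± 0.171 of the remaining clusters, and chromosome 17 held 10.8% ± 0.407 against 5.81% ± 0.385. Both were higher in 3 of 3 replicates (exact p = 0.25), out of 23 chromosomes compared. No clone-named cluster overlapped a remaining cluster of the same replicate on its own strand, and 0, 1 and 0 did on the opposite strand. Nearby windows were merged into 1 cluster that lists all of its genes. The own-strand result therefore does not show whether the genes overlap.

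Set against the classes of genes most like them, clone-only clusters had a higher median edit fraction than named noncoding RNAs in every replicate, and one that was not told apart from that of pseudogenes. The 90, 102 and 81 clusters in LINC, antisense and SNHG genes had a median edit fraction of 2.09% ± 0.289, and clone-only clusters lay 0.616 ± 0.344 points above them (3 of 3 replicates, exact p = 0.25). Neither this comparison nor that with pseudogenes was made within classes of depth. A depth under 10 reads was found in 33.0% ± 4.54 of clone-only against 25.1% ± 2.51 of LINC, antisense and SNHG clusters. Clone-only clusters also recurred more often than these, by 5.54 ± 1.78 points (3 of 3, exact p = 0.25), at a median depth that differed by -3.70 ± 0.693 reads. The 116, 149 and 106 pseudogene clusters had a median edit fraction of 2.64% ± 0.401, from which clone-only clusters differed by 0.0631 ± 0.336 points with both signs (exact p = 1.0). Pseudogene clusters recurred in 20.5% ± 2.80, and clone-only clusters differed from them by -3.10 ± 1.24 points (lower in 3 of 3, exact p = 0.25).

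The genes with the most clusters were nearly all names laid over a known gene. RP11-159D12.5 had 7, 9 and 5 clusters, all in the exon it shares with SRSF1, a serine/arginine-rich splicing factor. They spanned chromosome 17 from 56080917 to 56083241 and formed 11 loci, of which 3 were found in all 3 replicates and 4 in 1. Their edit fractions ran from 0.406% to 3.43%, and pooled over clusters they were 0.706%, 0.691% and 0.942%. The clusters of this gene thus had many reads and few edits per C base, with a median depth of 156 reads.

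RP11-321N4.5, over SYNCRIP, which encodes the RNA-binding protein hnRNP Q, had 6, 10 and 4 clusters at pooled edit fractions of 1.36%, 1.06% and 1.47%. Of its 15 loci, 11 were found in 1 replicate and 1 in all 3. AC073610.5, over ARF3, a small GTPase of the Golgi, and FKBP11, a prolyl isomerase, had 8, 5 and 6 clusters at 0.789%, 0.829% and 0.771%. AL139819.1, over the stearoyl-CoA desaturase gene SCD, had 5, 6 and 4 clusters at 0.591%, 0.634% and 0.456%. AL590762.1, over NONO, a paraspeckle protein that binds RNA, had 4, 4 and 3 clusters at 0.510%, 0.555% and 0.460% and a median depth of 249.6 reads. Of the 10 genes with the most clusters, SCD and NONO had the lowest pooled edit fractions in each of the 3 replicates and the highest median depths, that of SCD being 164 reads. AL590762.1 shared its count of 11 clusters with CTD-2132N18.3, AL589743.1 and AC034102.1. The latter had fewer edited reads and are outside the list of 10, so comparisons among the 10 do not cover them. AL589743.1 also had both clone-only and co-listed clusters.

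AC013394.2 was the one gene of the 10 listed with both kinds of cluster. Of its 15 clusters (5, 6 and 4), 6 were clone-only and 9 were shared with CHD2, a chromatin remodeller. Its pooled edit fractions of 1.72%, 1.41% and 1.80% were the highest of the 10 genes in replicates 1 and 3, and its 6 loci included 3 found in all 3 replicates. In replicate 2 the highest were AC011933.1 over the adaptor gene GRB2, at 0.693%, 2.53% and 1.41%, and AC005618.1 over TAF7, a subunit of TFIID, at 0.735%, 2.13% and 1.32%. Replicate 1 gave less than 50% of the value of replicate 2 in both, from 12 clusters each. RP11-599B13.6 over VAMP2, a vesicle fusion protein, and AL021707.1 over GTPBP1, a GTP-binding protein, also had 12 clusters each, at 0.947%, 0.993% and 1.21% and at 0.969%, 1.00% and 0.763%. Over all 487 genes, 243 had a single cluster and 74 had at least 5, and 115 had a cluster in all 3 replicates.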

How the data were processed

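Data were the FLARE clusters of 3 replicates of 1 condition. Per the labels, poly(A) RNA was sequenced from TruSeq libraries, and the submitters' processing notes name STAR (version not given in the sources used here) and hg19. The authors called C-to-U positions with SAILOR, removed common SNPs, tested windows of 30 bases against a zero-truncated Poisson model at an adjusted p-value of 0.1 and merged windows within 15 bases, each replicate on its own. The deposited counts (reads, edited reads, edited bases, C bases and C bases under reads) are whole numbers and unscaled. The deposited edit fraction is the ratio of edited to read-covered C bases, the deposited mean depth is a coverage signal not scaled to library size, and the deposited score is a negative binomial cumulative probability. Windows that failed the threshold were not analysed here, and read totals per library were not used here; the study's methods give only a common sequencing depth.

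Positions are hg19, counted from 1. Python (3.11.15), pandas (2.3.3), NumPy (2.4.6), matplotlib (3.10.9) and SciPy (1.17.1) gave shares, medians and differences per replicate as mean ± SD over 3 replicates, with two-sided exact sign-flip permutation tests. No p was adjusted, because none can pass a threshold. Replicates are separate samples in the labels. With 3 replicates the p-value is 0.25 whenever all differences share a sign, whatever their size. The SD, and not the p-value, therefore gives the spread between these samples. Reads carry no molecular identifiers. The intervals are on shares of clusters, treat clusters as independent and cover counting error only. The code was tested on simulated data. Clusters of different replicates were matched by at least 1 shared base on the same strand.

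Named were the 10 most edited loci (by edit fraction) present in 3 replicates with a depth of at least 50 in each, the 10 with the most edited reads, the 10 genes with the most clusters and at most 5 intronic loci found in at least 2 replicates; 1 of these loci is not reported here. Loci with at least 50% of reads edited, and the split by co-listed symbols, were chosen after the values were seen. Members and lists were chosen with earlier results of these data known. Only 6 of 487 gene names matched the RefSeq table (GRCh38.p14), from which no position was taken. The share of clusters with GCATG was not computed, because no hg19 genome was used here. Alternatives were minimum scores, depth and edited reads, names in RP only, other overlaps and summaries, and leaving out each replicate.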

Additional observations from a re-analysis of the deposited data

How the results depend on the processing

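Of 195 alternative values of 30 differences, not counting those that leave out a replicate, 10 reversed their direction and 185 did not. The main differences in median edited reads and in median length were 0 in every replicate, so they had no direction to reverse. Leaving out members that overlap a remaining cluster removed only 0, 1 and 0 clusters, so those values could hardly move. At a depth of at least 50, the depth difference from the remaining clusters became 2.40 reads for all clone-named and 7.37 for clone-only clusters, the clone-only difference in clusters with 1 edited read became 4.54 points, and the co-listed differences became 0.00457 points in edit fraction and 2.69 points in scores of at least 0.99. With names in RP only, the clone-only difference in clusters with 1 edited read was 2.16 points. With at least 2 edited reads, the co-listed difference in scores of at least 0.99 was 1.25 points. The co-listed difference in edit fraction was 0.0288 points with means and 0.0466 within depth classes, and that in clusters with at least 80% of reads edited was -0.0325 points. Leaving out 1 replicate moved the clone-only difference in clusters with 1 edited read between -1.03 and 0.764 points and the co-listed difference in scores of at least 0.99 between -2.32 and 0.875 points. The causes were not tested.

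Clone-named clusters were 3.36% of those with a score of at least 0.99, 1.39% with names in RP only, 4.40% with a clone-based name anywhere in the list and 1.30% with clone-based names only. The other alternatives that turned on co-listed symbols, depth classes, 20 reads or 80% of reads were chosen after seeing the data. At a depth of at least 50 the clone-only recurrence difference was 19.5 points and that in clusters with at least 50% of reads edited 11.9 points. With 1 condition there were no groups to pair, and every difference was already taken within a replicate. Only clusters that passed the authors' filter were seen, and 1 edited read is all that lies behind many edit fractions.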

Other observations

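Clusters that list a clone-based name behind another gene numbered 185, 188 and 139 in replicates 1, 2 and 3. Their median edit fraction was 1.97% ± 0.264 (SD, n = 3) at a median depth of 21.9 ± 3.89 reads. Intronic clusters made up 18.0% ± 2.09 of them, 11.7% ± 1.70 were found in all 3 replicates, and 1, 0 and 0 had at least 50% of at least 10 reads edited.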
